A study of Mus musculus with 12 samples.

Results

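The 9 libraries described here are RNA-seq profiles of tibialis anterior muscles in which the Dux transgene was not induced, 9 of the 12 libraries of the series. They were chosen by their column names in the count table, with no measured value used. The set holds 3 groups of 3 libraries. EV muscles received the vectors AAV:TET and AAV:MCS, an empty vector, and the mice ate standard chow. EV_DOX muscles received the same pair of vectors, and the mice ate chow with doxycycline at 600 mg/kg. DUX muscles received AAV:TET and AAV:Dux, a vector for the mouse homologue of human DUX4, and the mice ate standard chow, so that the transgene was not induced. The remaining group, DUX_DOX, carried AAV:Dux and ate doxycycline chow. All mice were C57BL/6 males injected at 8 weeks of age, all muscles of the set carried AAV:TET, and the chow was given from 7 days after injection for a further 2 or 7 days, with no statement of which applies to a library. The protocol injected the empty vector and the Dux vector into opposite limbs, but no label ties a library to a mouse, no promoter for the vectors is given in the sources used here, and the vector dose is given only as a range. Every muscle of the set was therefore injected with virus, and an uninjected muscle was not analysed here.

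The tibialis anterior lifts the foot and in the mouse consists almost wholly of fast, glycolytic fibres, with few slow fibres. Slow fibres carry their own set of contractile proteins, among them the myosin heavy chain Myh7 and the regulatory light chain Myl2. A whole excised muscle also holds tendon, whose tenocytes make collagen-binding proteins such as fibromodulin (Fmod) and tenomodulin (Tnmd), together with nerve, blood, vessels and immune cells. Interferon, a cytokine signal of infection and immune activation, raises guanylate-binding proteins such as Gbp10, the p47 immunity GTPases such as Iigp1, and chemokines such as Cxcl9. In RNA of a whole muscle, fewer cells of a type and less RNA per cell cannot be told apart.

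Totals ran from 12734457 counts in EV 1 to 13811999 in DUX 1. No pair of libraries within a group agreed within sampling noise, and the 9 columns were kept as 9 libraries. The labels do not say that libraries of a group come from separate mice, so p-values measure the spread between these libraries, which may be technical. No value of the Dux gene is reported here. Its targets in the mouse 2-cell embryo, with 12 gene identifiers in the table, gave 25 counts over all 9 libraries together and 16112 counts over the 3 DUX_DOX libraries. The table holds only genes with a mean of at least 10.0 counts over the 12 libraries. Targets with so few counts in the 9 could enter it only through DUX_DOX, so this contrast follows from that floor. Of the 15 target symbols listed, 10 were in the table, and the others could not be seen. The 25 counts were 0, 0 and 2 in EV, 4, 0 and 2 in EV_DOX and 5, 7 and 5 in DUX. Each DUX library thus lay above every EV and EV_DOX library, at few counts, and the difference was not tested. Levels are given as CPM, counts scaled to the TMM-adjusted library total, unless TPM, which also divides by transcript length, is named. On the first principal component of log2 CPM, with 38.4% of the variance, EV 1 (20.34), EV 3 (25.41) and EV_DOX 1 (29.46) stood apart from the other 6 libraries, which lay between -18.23 and -2.48. That split runs across EV and EV_DOX, while all 3 DUX libraries lay on the low side. On the second component, with 12.65%, EV_DOX 2 lay highest at 19.24. The mitochondrially encoded share of the counts was lowest in EV_DOX 1 (16.09%), EV 1 (17.15%) and EV 3 (17.19%) and highest in DUX 1 (21.22%).

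Resting tibialis anterior was a narrow transcriptome, in which 47 of the 12665 genes tested held 50% of all CPM. The table held 9 of the 15 mitochondrially encoded genes listed, so ranks by level are among the genes analysed here. By mean TPM over the 9 libraries, the highest of them was mt-Co1 (82367 TPM), a catalytic subunit of cytochrome c oxidase encoded in the mitochondrial genome, followed by mt-Cytb (77464 TPM) of respiratory complex III. Genes of complex I from the same genome, mt-Nd1, mt-Nd2, mt-Nd5 and mt-Nd4, also stood among the 10 highest, with 28683 TPM for mt-Nd4 and 72704 TPM for mt-Nd1. Acta1, the skeletal muscle actin, was the highest nuclear gene at 48696 TPM. It was joined by 3 parts of the fast fibre's calcium control, the troponin subunits Tnnt3 (24921 TPM) and Tnnc2 (21878 TPM) and the sarcoplasmic calcium pump Atp2a1 (22446 TPM).

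Fast and slow isoforms of the same proteins lay far apart in level. The 15 fast fibre genes took 16.7% of the counts and the 14 slow fibre genes 0.0321%. Among the adult myosin heavy chains Myh4, Myh1, Myh2 and Myh7 on the TPM scale, Myh4, of the fastest fibres, held a median of 76.2% (71.1 to 86.8%). Myh1 held 22.4% (12.6 to 27.8%), Myh2 1.11% (0.475 to 1.46%) and the slow chain Myh7 0.00405% (0.00156 to 0.150%). The fast troponin C gene Tnnc2 had a median of 22043 TPM against 5.47 TPM for its slow counterpart Tnnc1. Casq1, the fast fibre calsequestrin that stores calcium, had a median of 4547 TPM, and Casq2, the slow and cardiac form, 45.3 TPM. Enzymes of glycolysis and energy transfer were high as well, with medians of 16162 TPM for the creatine kinase Ckm and 14086 TPM for the aldolase Aldoa. The plot of contractile genes shows that the fast and slow isoforms also differed in their range over the libraries.

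**Figure D1:**
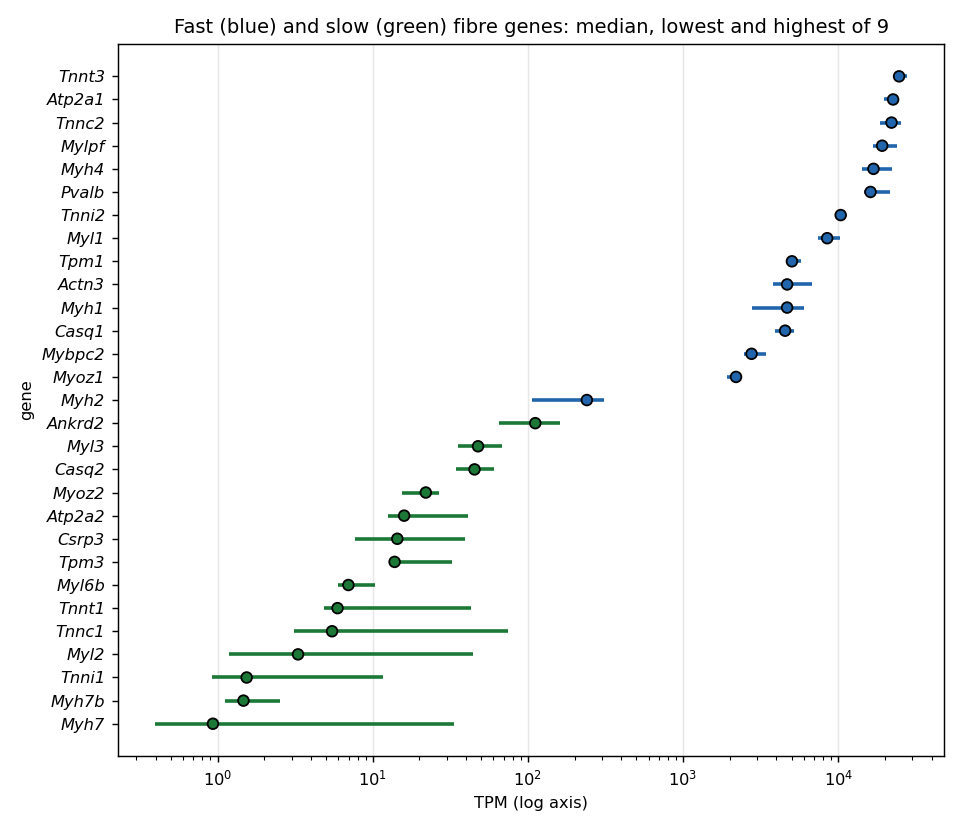
TPM, on a log axis, of the fast fibre genes (blue) and slow fibre genes (green) over the 9 libraries; points are medians and bars run from the lowest to the highest library. Bars of most fast genes are short, whereas those of Myh7, Tnnc1, Myl2 and Tnnt1 reach far to the right, up to 33.4 TPM for Myh7 against a median of 0.934.

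Variation between libraries beyond the group was measured for each gene as the SD of log2 CPM (prior count 2) around the 3 group means. The median gene had an SD of 0.169 (interquartile range 0.113 to 0.269), and its highest library lay 1.47-fold above its lowest. An SD over 0.5 was found in 711 genes (5.61%), and 2322 genes (18.3%) had a highest library over 2-fold above the lowest. In 59 genes that range passed 8-fold. The SD depended on the level, with a median of 0.382 in the 1634 genes below 2 CPM and of 0.133 in the 5043 genes from 10 to 50 CPM. Fold ranges of single genes are on the same log2 scale, where the prior count makes them smaller for genes of few counts. The share of the variance of log2 CPM that lay between the groups was 29.3% for the median gene and 32.1% as a mean over genes. With 2 of 8 degrees of freedom between groups, 3 groups that do not differ give 25% on average.

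The least variable genes had nearly the same level in all libraries of a group. Hp1bp3, a heterochromatin protein, ranged from 81.9 CPM in DUX 1 to 88.1 CPM in EV_DOX 1, with an SD of 0.02. Rmnd5a, a subunit of a ubiquitin ligase, read 239, 235 and 243 CPM in EV, 213, 212 and 218 CPM in EV_DOX and 200.5, 198 and 195 CPM in DUX, so that its groups did not overlap although its whole range was 1.25-fold. Opa3 and Ubl4a had SDs of 0.03 and D5Ertd579e of 0.02. Among cell type lists, the 12 endothelial genes had a median SD of 0.141. The median over all genes was 0.133 from 10 to 50 CPM and 0.106 from 50 to 200 CPM. The least variable endothelial gene, the co-receptor Eng, read from 54.8 to 61.7 CPM. Rgs5, a pericyte marker, read from 439 to 489.6 CPM with an SD of 0.05, the smallest of the smooth muscle and pericyte list. That list had a median SD of 0.179, against 0.169 over all genes, and its SDs reached 0.53. The 18 genes of glycolysis and glycogen had a median SD of 0.0965. Many genes of the tendon, slow fibre and interferon lists lay above the bulk of genes of their level in the plot of spread against level.

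**Figure D2:**
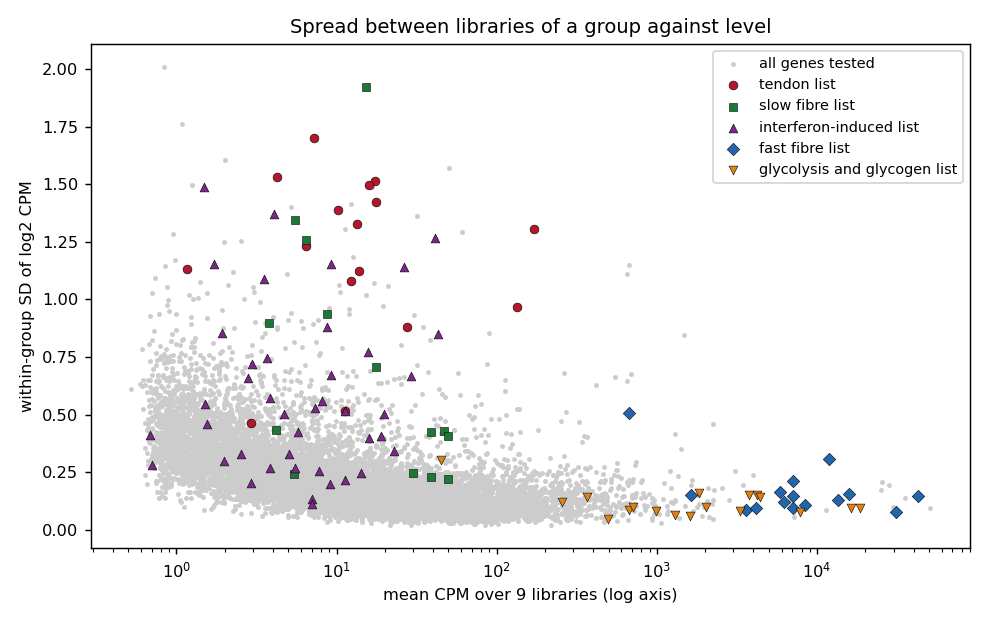
Within-group SD of log2 CPM (vertical) against mean CPM over the 9 libraries on a log axis (horizontal) for all 12665 genes (grey) and 5 gene lists (coloured). Tendon genes (red) reach an SD of 1.70 and Myh7 1.92, while the fast fibre genes (blue) lie between 0.08 and 0.51.

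No gene passed the test between the groups. The quasi-likelihood test of edgeR with Benjamini-Hochberg adjustment called 0 of 12665 genes (0%) for any difference among EV, EV_DOX and DUX, with 1475 genes at an unadjusted p below 0.05 and a lowest adjusted p of 0.1305. It called 0 (0%) for EV_DOX against EV, with 1045 genes below 0.05 unadjusted, and 0 (0%) for DUX against EV, with 1976. These comparisons share the EV libraries. If no gene differed, a share of about 0.05 of the 12665 genes would lie below 0.05 unadjusted, and each of these counts is above that. limma-voom called 0, 0 and 0 genes. Of the genes it kept, DESeq2 called 114 of 3826 (2.98%), 22 of 11191 (0.197%) and 168 of 6035 (2.78%). Without EV 2, edgeR called 4 genes among the groups and 45 for DUX against EV, and without DUX 2 it called 1 and 3. Fitted with all 12 libraries, it called 4 genes among the 3 groups, 5 for EV_DOX against EV and 0 for DUX against EV.

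The 5 genes with the smallest p among the groups were Klf10, Ssbp2, Cited4, Scand1 and Gstm5, all at an adjusted p of 0.13 in edgeR's quasi-likelihood test. Klf10, a TGF-beta-inducible transcription factor, read 19.4, 24.2 and 20.0 CPM in EV, 17.4, 14.6 and 16.8 CPM in EV_DOX and 42.9, 27.9 and 40.2 CPM in DUX. All DUX libraries lay above all others, by a log2 fold change of 0.81 (SE 0.15) over EV that did not pass edgeR's test at an adjusted p of 0.199. Without DUX 2 it was 0.97 and passed at 0.0474 by edgeR. Cited4, a transcriptional co-activator, read 10.3, 10.0 and 9.87 CPM in EV, 15.3, 16.3 and 16.9 CPM in EV_DOX and 11.02, 11.7 and 11.4 CPM in DUX. The EV_DOX libraries lay above the rest, with a log2 fold change of 0.68 (SE 0.10) over EV and an adjusted p of 0.115 in edgeR's test. Gstm5, a glutathione transferase, read 114, 45.2 and 109.9 CPM in EV, 157, 223 and 153 CPM in EV_DOX and 37.1, 45.8 and 43.7 CPM in DUX. Its value in EV 2 lay among the DUX libraries. Without EV 2, Gstm5, Ssbp2 and Klf10 passed the test among the groups, at adjusted p-values of 0.00108, 0.00906 and 0.0499 in edgeR, and Klf10 also passed without DUX 2, at 0.0216. Over all alternatives the highest adjusted p was 0.53 for each of these 3 genes, and the lowest for Gstm5 was 0.000216, in DESeq2. Ssbp2 and Scand1 were also highest in EV_DOX, at means of 33.2 CPM (SD 2.57, n = 3) and 9.70 CPM (SD 2.51, n = 3), against 21.4 CPM (SD 5.20, n = 3) and 3.13 CPM (SD 0.873, n = 3) in EV. In the fit of all 12 libraries, Klf10, Ssbp2, Scand1 and Gstm5 passed at an adjusted p of 0.0483 by edgeR.

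The tendon genes varied most as a list. All 16 were tested, their median SD was 1.27 against 0.169 over all genes, and 15 of 16 had an SD over 0.5, beside 5.61% of all genes. Summed over the list, the level was 421, 225 and 1284 CPM in EV, 1235, 266 and 179 CPM in EV_DOX and 209, 139.6 and 234 CPM in DUX. EV 3 and EV_DOX 1 stood highest, with EV 1 next, so that each of the empty vector groups held both high and low libraries. In 15 of 16 members the 3 highest libraries were EV 1, EV 3 and EV_DOX 1, the libraries set apart on the first principal component. Of all genes tested, 10.8% had those 3 libraries on top. This list and those below were chosen with earlier results of these data known, so such counts are descriptions. The tendon genes also entered the component. The median SD of the list was 0.971 without EV_DOX 1.

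Fmod (ENSMUSG00000041559, chromosome 1, 134037254 to 134048277 in GRCm38), which binds collagen fibrils and sets their thickness, read 118, 76.3 and 526 CPM in EV, 489, 90.0 and 56.1 CPM in EV_DOX and 63.4, 35.8 and 72.3 CPM in DUX. Group means were 240.4 CPM (SD 249, n = 3), 212 CPM (SD 241, n = 3) and 57.2 CPM (SD 19.0, n = 3), and in both empty vector groups the SD exceeded the mean. The DUX libraries lay below all EV libraries, with a log2 fold change of -2.07 (SE 0.83) that did not pass at an adjusted p of 0.282 in edgeR's test, and it was -0.77 without EV 3. Tnmd (ENSMUSG00000031250, chromosome X, 133850980 to 133865577), a membrane protein of mature tenocytes, read 12.2, 5.21 and 41.9 CPM in EV, 37.9, 6.56 and 3.69 CPM in EV_DOX and 3.78, 3.60 and 5.25 CPM in DUX. Here EV 2 fell within the range of the DUX libraries, and the log2 fold change of -2.23 (SE 0.88) had an adjusted p of 0.275 in edgeR and was -1.05 without EV 3. Fmod read 87.5, 88.2 and 109 CPM and Tnmd 5.64, 7.08 and 7.50 CPM in the DUX_DOX libraries.

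Other members followed the same libraries. Kera, the corneal and tendon proteoglycan keratocan, read 24.7, 4.90 and 52.8 CPM in EV, 47.5, 7.02 and 3.76 CPM in EV_DOX and 5.55, 2.92 and 6.34 CPM in DUX. Chad, a leucine-rich protein of cartilage and tendon, read 49.1 CPM in EV 3 and 52.6 CPM in EV_DOX 1 and at most 10.3 CPM in the other 7 libraries. The secreted factor Angptl7 reached 59.7 and 55.2 CPM in the same pair of libraries. Col11a1, a minor chain of fibrillar collagen with the largest SD of the list (1.70), read 20.7 and 21.1 CPM there, 8.50 CPM in EV 1 and at most 5.54 CPM elsewhere. Wif1, a secreted inhibitor of Wnt signalling, read 5.67, 1.01 and 14.7 CPM in EV, 11.6, 2.19 and 1.08 CPM in EV_DOX and 0.231, 0.824 and 1.02 CPM in DUX, with 3 counts in DUX 1. Scx, the transcription factor that specifies tendon, showed the smallest spread of the list, with 5.57 CPM in EV_DOX 1 and 1.65 CPM in DUX 2.

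The pattern extended into fibrillar collagen and matrix genes and was weaker there. Their median SD was 0.561, with 16 of 26 above 0.5, beside 5.61% of all genes. In 15 of 26 the 3 highest libraries were EV 1, EV 3 and EV_DOX 1, beside 10.8% of all genes. The collagen type I chain Col1a1 read 670.2, 290.2 and 1537 CPM in EV, 1575, 513 and 207 CPM in EV_DOX and 310.1, 278 and 439 CPM in DUX. Col3a1, the chain of the finer fibrils within the muscle belly, ranged 3.46-fold and was highest in EV 1, at 1051 CPM, and lowest in EV_DOX 3, at 303 CPM. Col12a1, which decorates collagen fibrils, and Tnc, the matrix protein tenascin C, had the largest SDs, 1.49 and 1.41. Elastin (Eln) had the smallest, 0.33, from 21.2 to 37.1 CPM. Genes of the fibro-adipogenic cells that make much of the muscle's matrix were steadier, with a median SD of 0.295 and a summed level from 699 to 1132 CPM.

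**Figure D3:**
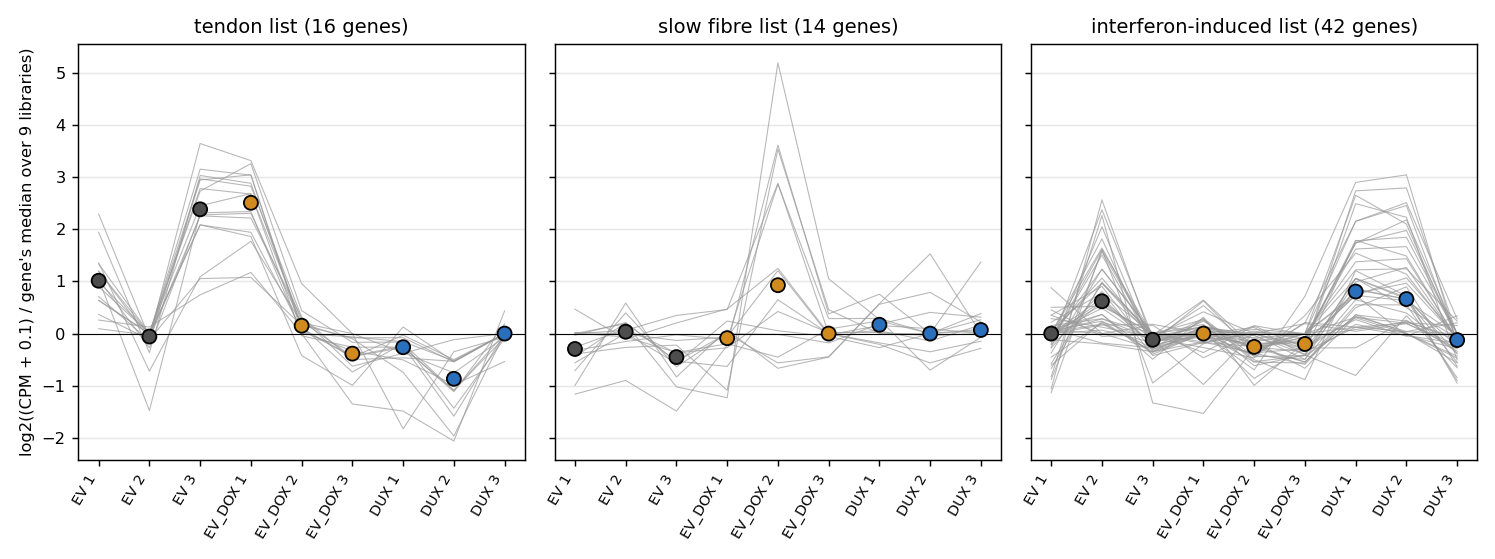
log2 of CPM (plus 0.1) relative to each gene's median over the 9 libraries, by library, for the tendon, slow fibre and interferon-induced lists; grey lines are genes and filled circles the median of the list, coloured by group. The tendon genes peak in EV 3 and EV_DOX 1, the slow fibre genes in EV_DOX 2, and the interferon-induced genes in EV 2, DUX 1 and DUX 2.

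Slow fibre genes set a single library apart. The sum of the 14 genes was 248, 303 and 223 CPM in EV, 293, 572 and 270.0 CPM in EV_DOX and 320.2, 345 and 316 CPM in DUX. EV_DOX 2 was highest in 9 of 14 members, against 9.67% of all genes. The median SD of the list was 0.431, and without EV_DOX 2 it was 0.262. Members ranged from 1.73-fold to 83-fold between their lowest and highest library, so the list did not move as one.

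Myh7 (ENSMUSG00000053093, chromosome 14, 54970684 to 54994626), the slow myosin heavy chain, read 2.99, 3.42 and 1.42 CPM in EV, 1.21, 113 and 6.30 CPM in EV_DOX and 3.62, 1.80 and 2.84 CPM in DUX. Its SD of 1.92 was the largest among genes of at least 5 CPM, and the 1500 counts in EV_DOX 2 compared with 17 to 82 in the other 8 libraries. The EV_DOX mean was 40.2 CPM (SD 63.2, n = 3). The log2 fold change of EV_DOX over EV, 3.94 (SE 1.23), did not pass at an adjusted p of 0.502 in edgeR's test, and it was 0.51 without EV_DOX 2. The SD without that library was 0.871. Myl2 (ENSMUSG00000013936, chromosome 5, 122100951 to 122113472), the slow and cardiac regulatory light chain, read 1.15, 1.40 and 0.897 CPM in EV, 2.29, 34.3 and 3.53 CPM in EV_DOX and 4.62, 2.70 and 7.15 CPM in DUX. Every EV_DOX and DUX library lay above every EV library, and the log2 fold changes over EV of 3.53 (SE 0.97) and 2.07 (SE 1.04) had adjusted p-values of 0.453 and 0.361 in edgeR. The first was 1.33 without EV_DOX 2. Its SD of 1.26 became 0.503 without EV_DOX 2.

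Slow troponins moved with the myosin. Tnnc1, the slow troponin C, read 30.6 CPM in EV_DOX 2 and from 1.143 to 3.53 CPM in the other 8 libraries. Tnnt1, the slow troponin T, read 37.3 CPM there and from 3.98 to 6.17 CPM elsewhere, and the slow troponin I gene Tnni1 16.5 CPM against 1.42 to 3.00 CPM. Tpm3, the slow tropomyosin, and Atp2a2, the slow fibre calcium pump, were less sharply raised in that library, at 78.0 CPM against at most 37.5 CPM and at 98.4 CPM against at most 57.3 CPM. In DUX_DOX, whose muscles expressed Dux, Myh7 read 3.50, 69.3 and 4.02 CPM and Tnnc1 3.81, 18.6 and 3.25 CPM, so that 1 of those 3 libraries, replicate 2, was also high.

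Other slow-associated genes had another order of libraries. Csrp3, a mechanosensing LIM protein of the Z-disc, read 7.66, 23.2 and 8.60 CPM in EV, 16.1, 9.66 and 11.2 CPM in EV_DOX and 22.97, 44.6 and 15.4 CPM in DUX. Ankrd2, a stretch-responsive titin-binding protein, read 27.5, 59.4 and 28.9 CPM, 30.5 CPM in EV_DOX 2, and 66.7, 78.1 and 52.6 CPM in DUX. Both were highest in EV 2, DUX 1 and DUX 2. Casq2 had the smallest SD of the list, 0.22, and was lowest in EV_DOX 2 at 36.8 CPM.

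The same library was at an extreme for other fibre and nerve genes. Myh2, of the fast oxidative fibres, read 497, 903 and 478 CPM in EV, 756, 297 and 597 CPM in EV_DOX and 764, 914 and 806 CPM in DUX, lowest in EV_DOX 2. Myh1 was also lowest there, at 7006 CPM against 8968 to 17060.0 CPM, while Myh4, at 45762 CPM, was within the range of the others. Of 11 genes of Schwann cells and nerve, 10 were highest in EV_DOX 2, against 9.67% of all genes. Their summed level was 106, 136.5 and 99.9 CPM in EV, 66.5, 230.0 and 107 CPM in EV_DOX and 129.9, 142 and 133 CPM in DUX. EV_DOX 1 was the lowest library for this sum. Whether the nerve genes had a part in the slow fibre values was not tested.

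**Figure D4:**
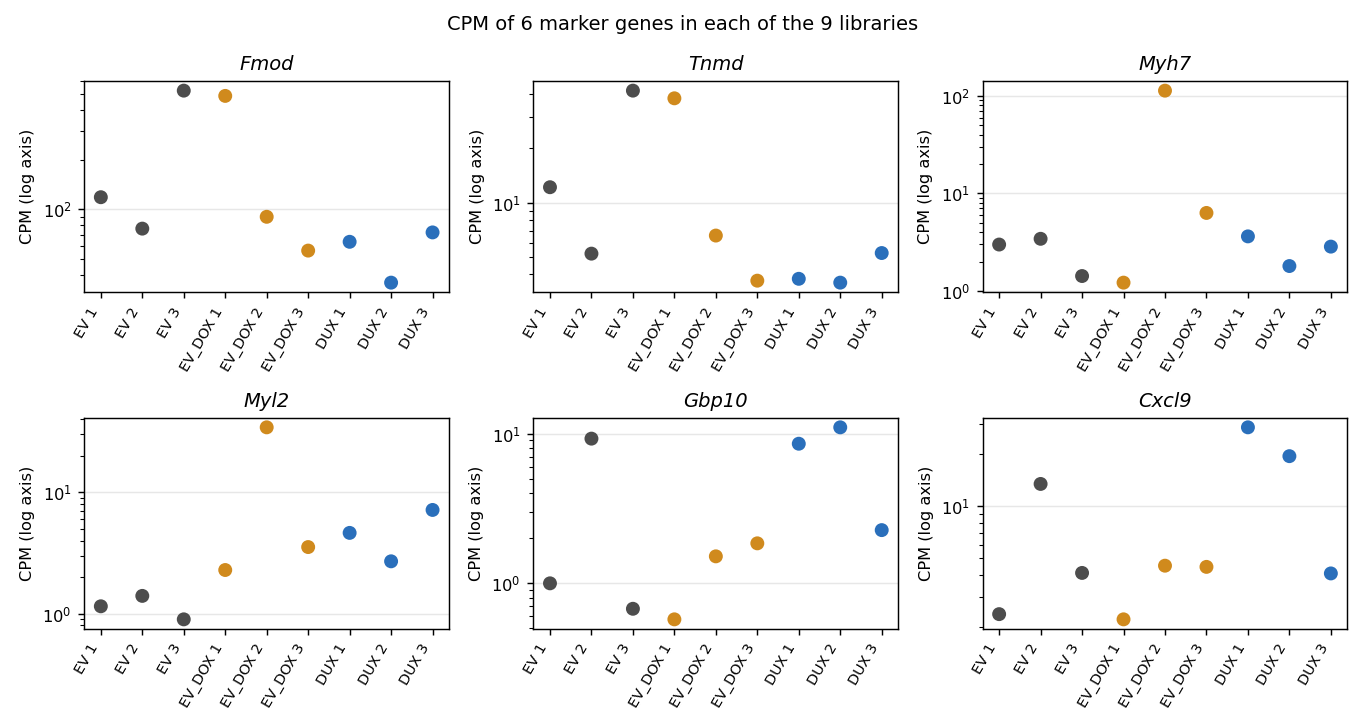
CPM on a log axis of Fmod, Tnmd, Myh7, Myl2, Gbp10 and Cxcl9 in each of the 9 libraries, with EV in grey, EV_DOX in orange and DUX in blue. Fmod and Tnmd are high in EV 3 and EV_DOX 1, Myh7 and Myl2 in EV_DOX 2 (113 and 34.3 CPM), and Gbp10 and Cxcl9 in EV 2, DUX 1 and DUX 2.

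Interferon-induced genes divided the libraries in yet another way. Of 49 symbols on the list 43 were in the table and 42 were tested. Their sum was 290.1, 592 and 266 CPM in EV, 322, 258 and 262 CPM in EV_DOX and 699.7, 699 and 262 CPM in DUX. In 25 of the 42 the 3 highest libraries were EV 2, DUX 1 and DUX 2, an order found in 2.73% of all genes tested. The median SD was 0.510, and 23 of 42 exceeded 0.5, beside 5.61% of all genes. Without DUX 3 the median SD was 0.414. The list summed to 302, 328 and 279 CPM in the 3 DUX_DOX libraries, within the range of the low libraries of the set and just above it.

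Promoters of 4 genes with this order of libraries, Igtp, Irgm2, Cxcl10 and Gbp2, and of Bst2, the member with the smallest spread, are shown because members of the list moved together and interferon acts through known promoter elements. The windows run from 250 bases before to 50 bases after the gene start, from RefSeq on GRCm38.p6, with the start counted as 0. Capitals mark matches on either strand to GAAANNGAAA, the core of the interferon-stimulated response element, or to TTCNNNGAA, the gamma-activated site. A match is a description of the letters, not a binding site.

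Igtp (chr11:58199306-58199605, plus strand): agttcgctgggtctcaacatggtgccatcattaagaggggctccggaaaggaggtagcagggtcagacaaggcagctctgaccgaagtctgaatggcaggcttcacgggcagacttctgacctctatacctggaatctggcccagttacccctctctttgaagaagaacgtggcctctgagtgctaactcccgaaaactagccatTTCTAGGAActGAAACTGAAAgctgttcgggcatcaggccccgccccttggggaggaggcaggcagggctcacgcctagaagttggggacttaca

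Irgm2 (chr11:58214727-58215026, plus strand): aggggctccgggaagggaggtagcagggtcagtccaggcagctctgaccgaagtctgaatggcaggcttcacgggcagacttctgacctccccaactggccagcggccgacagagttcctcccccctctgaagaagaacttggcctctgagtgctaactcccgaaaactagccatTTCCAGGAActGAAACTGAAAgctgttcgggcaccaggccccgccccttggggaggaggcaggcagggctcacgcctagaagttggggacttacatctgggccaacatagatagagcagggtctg

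Cxcl10 (chr5:92348840-92349139, minus strand): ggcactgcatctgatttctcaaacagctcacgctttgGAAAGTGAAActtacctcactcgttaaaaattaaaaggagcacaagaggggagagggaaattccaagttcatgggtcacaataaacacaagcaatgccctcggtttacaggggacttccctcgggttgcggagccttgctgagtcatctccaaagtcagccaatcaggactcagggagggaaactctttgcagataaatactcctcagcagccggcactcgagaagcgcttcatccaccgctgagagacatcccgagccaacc

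Gbp2 (chr3:142620413-142620712, plus strand): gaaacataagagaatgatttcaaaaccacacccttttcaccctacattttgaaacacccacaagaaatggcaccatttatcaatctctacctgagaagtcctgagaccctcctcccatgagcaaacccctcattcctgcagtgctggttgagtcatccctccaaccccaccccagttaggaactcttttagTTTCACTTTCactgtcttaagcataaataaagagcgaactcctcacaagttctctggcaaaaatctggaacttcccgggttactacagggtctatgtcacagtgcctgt

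Bst2 (chr8:71537423-71537722, minus strand): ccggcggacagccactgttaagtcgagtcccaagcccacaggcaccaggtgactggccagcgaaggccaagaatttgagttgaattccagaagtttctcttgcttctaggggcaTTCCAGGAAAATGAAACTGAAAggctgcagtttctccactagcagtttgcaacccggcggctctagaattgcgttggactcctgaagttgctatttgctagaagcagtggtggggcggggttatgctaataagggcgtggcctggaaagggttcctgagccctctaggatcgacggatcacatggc

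Igtp holds GAAANNGAAA at -34 to -25 and TTCNNNGAA at -45 to -37, and Irgm2 holds the same pair of motifs at -64 to -55 and -75 to -67. Cxcl10 has GAAANNGAAA at -213 to -204, and Gbp2 has it at -59 to -50, on the opposite strand. Bst2 holds an overlapping pair of GAAANNGAAA matches, at -130 to -121 and -124 to -115, and TTCNNNGAA at -136 to -128, where the first element and the gamma site also share bases. The window of Bst2 therefore carried the same letters as those of the variable genes. GAAANNGAAA was found in 22 of the 37 windows (59.5%) that matched 32 genes of the list and in 1131 of all 32851 windows (3.44%). TTCNNNGAA was found in 10 of 37 (27.0%) and in 2726 of all (8.30%). The windows of Cxcl9 and Cd274 held neither motif.

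Gbp10 (ENSMUSG00000105096, chromosome 5, 105215699 to 105239533), a guanylate-binding protein that attacks intracellular pathogens, read 0.996, 9.25 and 0.673 CPM in EV, 0.572, 1.51 and 1.84 CPM in EV_DOX and 8.55, 11.01 and 2.26 CPM in DUX. EV 2, DUX 1 and DUX 2 stood above the other 6 libraries, and its ratio of highest to lowest was 15.5-fold. Its SD was 1.37 with all libraries and 0.911 without EV 2. Gbp10 and Gbp6 are close copies, so single values of each are uncertain. The chemokine Cxcl9 (chromosome 5, 92321347 to 92328079), which draws T cells, read 2.37, 13.5 and 4.11 CPM in EV, 2.22, 4.53 and 4.46 CPM in EV_DOX and 28.6, 19.5 and 4.08 CPM in DUX. Means for DUX and EV were 17.4 CPM (SD 12.4, n = 3) and 6.65 CPM (SD 5.96, n = 3), and their log2 difference of 1.39 (SE 0.65) had an adjusted p of 0.33 in edgeR. It was 2.41 without EV 2 and 0.83 without DUX 1. For Gbp10 the log2 fold change of DUX over EV was 1.00 (SE 0.77) with an adjusted p of 0.54 by edgeR. That value moved between 0.50 without EV 3 and 3.11 without EV 2, and did not pass in either case.

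Other members gave the same 3 libraries. Iigp1, an immunity GTPase, read 12.9, 77.3 and 14.1 CPM in EV, 19.8, 14.8 and 12.1 CPM in EV_DOX and 99.3, 103 and 14.5 CPM in DUX. Igtp, of the same family, read 49.99, 53.9 and 66.4 CPM in EV 2, DUX 1 and DUX 2 and from 8.98 to 13.8 CPM elsewhere, and Irgm2 read 75.4, 80.7 and 95.1 CPM against 20.1 to 24.5 CPM. Cxcl10, a chemokine with the largest SD of the list (1.49), had 39, 50 and 57 counts in those libraries and from 2 to 10 counts in the others. Cd274, which encodes the checkpoint ligand PD-L1, read 14.9, 16.8 and 17.6 CPM there and from 3.76 to 7.57 CPM elsewhere. Isg15, the ubiquitin-like modifier, lay lower, at 1.71 CPM in EV 2 and 2.24 and 2.85 CPM in DUX 1 and DUX 2 against 0.604 to 1.64 CPM.

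Several interferon genes had a small range or another order of libraries. Bst2, the antiviral tetherin, ranged from 5.53 to 8.17 CPM and was not higher in EV 2 (6.14 CPM) than in EV 1 (6.51 CPM). The RNA sensor Ddx58 ranged 1.55-fold and was highest in EV 1, at 11.3 CPM. Oas2, of the oligoadenylate synthetases that detect double-stranded RNA, was also highest in EV 1, at 5.13 CPM, and Trim30a ranged 1.41-fold.

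Genes of antigen presentation shared the order of libraries in part. Of 21 tested, 5 had EV 2, DUX 1 and DUX 2 on top, beside 2.73% of all genes. Others, among them B2m, H2-D1, H2-Aa and Ciita, had DUX 1, DUX 2 and EV_DOX 1 on top instead. That order was picked out after the values were seen, and its share over all genes was not counted. An SD over 0.5 was found in 4, beside 5.61% of all genes, and the median SD was 0.269. Tap1, the peptide transporter, read 10.7 CPM in EV 2, 13.3 CPM in DUX 1 and 13.9 CPM in DUX 2 and from 4.60 to 7.38 CPM elsewhere. Nlrc5, the activator of class I genes, read 5.05, 7.86 and 7.04 CPM in those libraries and from 1.76 to 4.22 CPM elsewhere. Their sum ran from 443.5 CPM in EV 1 to 768 CPM in DUX 1. H2-Q6 and H2-Q7, near-identical class I genes whose reads may be split between them, had the largest SDs of the list, 0.70 and 0.79, and were highest in EV_DOX 3 and EV_DOX 1.

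Markers of immune cells were looked at beside the interferon genes. None of the 15 T and NK cell genes listed was in the table, whose genes have a mean of at least 10.0 counts over the 12 libraries. Of 16 macrophage genes tested, 0 had EV 2, DUX 1 and DUX 2 as the 3 highest libraries, beside 2.73% of all genes. That count is too close to the share of all genes to set the list apart. The macrophage genes summed to 129, 135 and 194 CPM in EV, 168.5, 171 and 120.3 CPM in EV_DOX and 196, 177 and 187 CPM in DUX. Ptprc, the leukocyte antigen CD45, read 6.38 CPM in EV 2, 12.9 CPM in DUX 1 and 8.69 CPM in DUX 2 and from 3.62 to 7.44 CPM in the others. Lyz2, a macrophage lysozyme with the smallest SD of its list, ranged from 46.7 CPM in EV 2 to 75.7 CPM in DUX 1. The lowest and the highest library for Lyz2 were thus both high in interferon genes. The part of leukocytes in the interferon values was not tested.

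Blood genes, and Actc1 among the fibre-repair genes, singled out further libraries. The 5 red blood cell genes summed to 127, 174 and 152 CPM in EV, 84.2, 228 and 162 CPM in EV_DOX and 218, 258 and 524 CPM in DUX. DUX 3 was highest in all 5, and in 1147 of all 12665 genes tested. The globin gene Hba-a2, whose reads can be shared with its copy Hba-a1, read 77.1 CPM in DUX 3 and 12.9 CPM in EV_DOX 1, and Alas2, the haem synthesis enzyme of red cells, 13.4 and 1.501 CPM. For Hba-a2 all DUX libraries lay above all other libraries, with a log2 fold change over EV of 1.31 (SE 0.33) and an adjusted p of 0.203 in edgeR, and the log2 fold change was 0.86 without DUX 3.

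Genes of developing and regenerating fibres summed to 663, 201 and 401 CPM in EV, 426, 307 and 254 CPM in EV_DOX and 254, 227 and 291 CPM in DUX, with EV 1 highest. Actc1, the cardiac actin also made in immature fibres, read 593 CPM in EV 1 and from 136 to 327 CPM elsewhere. It made up most of the sum in every library, and no other member tested was highest in EV 1. Myh3, the embryonic myosin, read 8.27, 2.72 and 9.79 CPM in EV, 11.9, 3.92 and 2.07 CPM in EV_DOX and 2.00, 2.02 and 1.90 CPM in DUX. Its highest libraries were EV 1, EV 3 and EV_DOX 1, the same as for tendon. Myog, the myogenic factor of differentiating cells, ranged only from 2.33 to 3.24 CPM.

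Nuclear-encoded oxidative genes and clock genes had another order of libraries. The 18 nuclear-encoded oxidative genes summed to 14204, 16221 and 12980 CPM in EV, 13138, 13657 and 17886 CPM in EV_DOX and 18150.2, 17175 and 18156 CPM in DUX. Their median SD was 0.186, against 0.169 over all genes and 0.126 over all genes of at least 200 CPM. An SD over 0.5 was found in 0 of 18, beside 5.61% of all genes. The 3 libraries highest in tendon genes were 3 of the 4 lowest here. Cox6a2, the muscle subunit of cytochrome c oxidase, read 538, 784 and 533 CPM, then 520.1, 795 and 854 CPM, then 828, 937 and 840.1 CPM in EV, EV_DOX and DUX. Fabp3, which carries fatty acids in muscle, ranged from 113 to 242 CPM. The clock genes, 18 of 18 tested, had a median SD of 0.228, and their sum was lowest in EV_DOX 2 at 1006 CPM, against 1139 to 1284 CPM elsewhere. Per2, a repressor of the clock, read from 7.01 CPM in DUX 1 to 16.9 CPM in EV_DOX 3, and Arntl, its activator, from 7.22 CPM in EV_DOX 3 to 14.9 CPM in DUX 2. Of these lists and those above, the summed levels are shown side by side in the plot of lists by library.

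**Figure D5:**
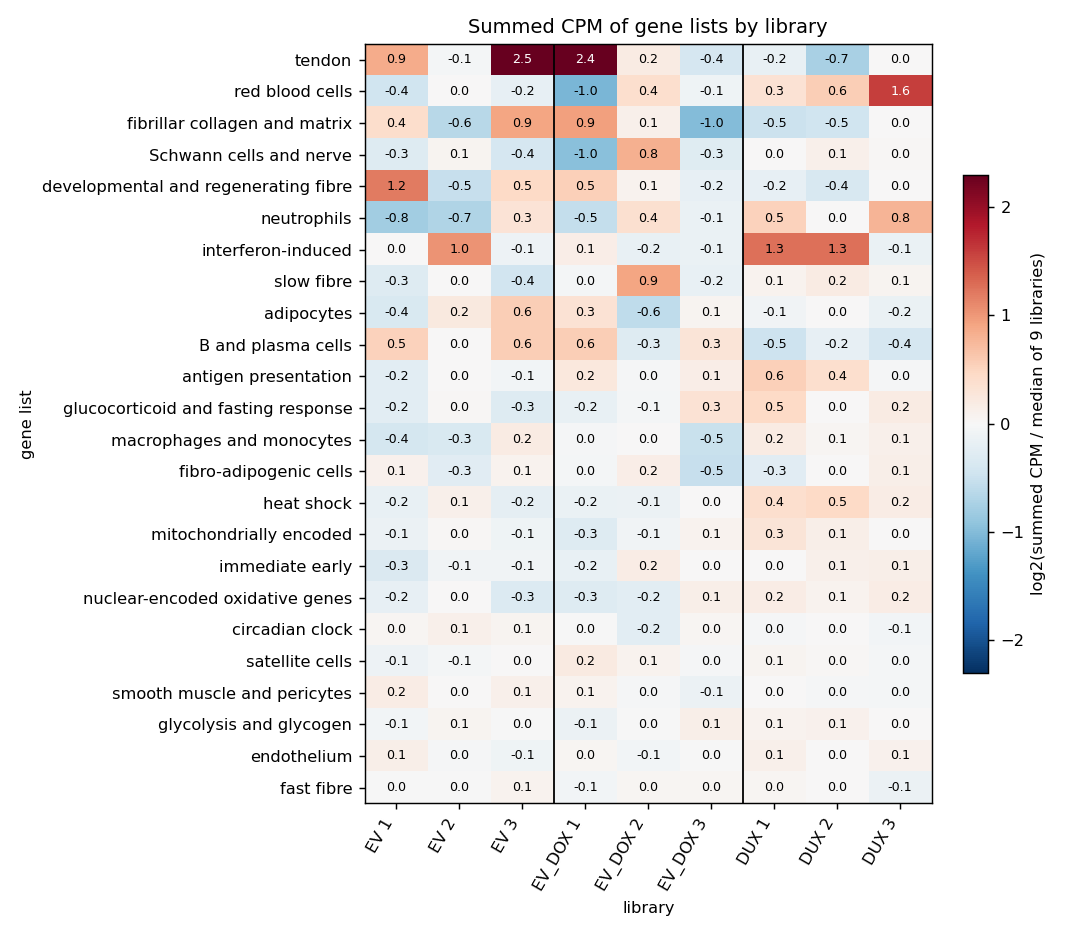
log2 of the summed CPM of each gene list in each library relative to the median of the 9 libraries; rows are lists, columns libraries, and vertical lines part EV, EV_DOX and DUX. Tendon is highest in EV 3 and EV_DOX 1, red blood cells in DUX 3, Schwann cells and slow fibre in EV_DOX 2, and interferon-induced genes in EV 2, DUX 1 and DUX 2, while endothelium, glycolysis and fast fibre stay near 0 in every library.

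Single libraries also stood clear of the other 8 in some genes. EV 1 did so in Cish, a suppressor of cytokine signalling, at 64.0 CPM against 6.20 to 22.9 CPM. EV_DOX 1 led in Igfn1, a Z-disc protein of skeletal muscle, at 122 CPM, with 62.3 CPM in EV 1, 40.4 CPM in EV 3 and from 7.51 to 14.9 CPM in the other 6. The same 3 libraries were highest in Rian, an imprinted noncoding RNA, at 93.6 CPM in EV_DOX 1, 50.9 CPM in EV 3 and 50.1 CPM in EV 1 and from 14.4 to 28.6 CPM elsewhere. DUX 2 led in Mustn1, a small nuclear protein of the musculoskeletal system, at 184 CPM against 34.9 to 89.1 CPM, and in Csrp3. Gaps were smaller in EV 2, where Dusp10, a phosphatase of MAP kinases, read 93.1 CPM against 44.0 to 71.6 CPM, and in EV 3, where the fatty acid desaturase Fads1 read 18.5 CPM against 5.15 to 9.50 CPM. In 7 genes EV 1 stood over 2-fold above the next library, and in 7 genes EV_DOX 2 did. No gene did so for EV 2, EV 3, EV_DOX 3 or DUX 1.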

How the data were processed

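RNA of whole tibialis anterior was made into libraries by poly-A enrichment from 200 ng of RNA with TruSeq reagents, per the labels' protocols. The deposited values are raw read counts of genes. The submitters' processing notes name bcl2fastq 2.17.1.14, the aligner STAR, the counter featureCounts and the build GRCm38, and the sources used here give no version for STAR or featureCounts, no strand setting and no annotation. The deposited table holds 12752 genes with a mean of at least 10.0 counts over the 12 libraries, so genes below that are not analysed here. Near-identical copies and overlapping genes may share reads.

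The 9 libraries were fitted in edgeR 4.0.16 (R 4.3.3) with 1 mean per group and TMM scaling (factors 0.939 to 1.07). CPM of the DUX_DOX libraries came from a separate TMM scaling over all 12 libraries. The filterByExpr filter, run on the 3 groups, kept 12665 genes and removed 87. Of the removed genes, 43 had a mean count in DUX_DOX over 10 times that of the 9 libraries. Quasi-likelihood tests, two-sided, were adjusted by Benjamini-Hochberg over all genes tested, with a threshold of 0.05. The median biological coefficient of variation was 11%. Spread is the SD of log2 CPM (prior count 2) around the group means. TPM used exon lengths of GENCODE M21 on GRCm38, in which 12728 identifiers matched. Alternatives used DESeq2 1.42.0, limma 3.58.1, other scaling factors, no filter, a prior count of 0.5, all 12 libraries, a replicate block and each library left out. The steps were tested on simulated data.

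Members and gene lists were chosen with earlier results of these data known, so lists are described by counts and medians and not tested. Genes named are the 6 markers Fmod, Tnmd, Myh7, Myl2, Gbp10 and Cxcl9, the 10 with the most counts per kilobase, the 15 of at least 5 CPM with the largest spread, the 2 most and the 1 least variable members of each list at 1 CPM or more, the 2 genes in which each library stands furthest above the next, the 5 with the smallest p among the groups and the 5 of at least 50 CPM with the smallest spread. Predicted genes were left out, as were some names for length, and a few results are not reported here. Further members of the lists were named after their values were seen, to show how a list varies.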

Additional observations from a re-analysis of the deposited data

Results flagged for a closer look

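Over the 9 libraries taken as 1 set, the gap in log2 CPM between an extreme library and its nearest neighbour, divided by the whole range, was compared with Dixon's 95% critical value for 9 samples, over the 6 marker genes and the summed levels of the 24 gene lists with members tested. For independent sets picked without sight of the data, such a gap arises by chance in about 1 of 20. These sets were chosen with earlier results of these data known, and Myh7 is also a member of the slow fibre list. That rate therefore does not apply to them, and the gaps are a description. On the log2 scale 3 of the 30 sets had such a gap, each time through EV_DOX 2. Myh7 was high in EV_DOX 2, with 113 CPM against at most 6.30 CPM in the other libraries and a ratio of 0.649. The summed slow fibre list was high in the same library, with 572 CPM against at most 345 CPM and a ratio of 0.536. The summed circadian clock list was low there, with 1006 CPM against at least 1139 CPM and a ratio of 0.509. The result depends on the scale. On CPM itself, a comparison added after the data were seen, 6 of 30 sets passed, 2 of them on both scales, Myh7 (0.955) and the slow fibre list (0.65). The clock list fell short at 0.478. Myl2 (0.813) and the Schwann cell and nerve list (0.54), both high in EV_DOX 2, the red blood cell list (0.604), high in DUX 3, and the list of developing and regenerating fibres (0.513), high in EV 1, passed on CPM alone. The last of these sums was mostly Actc1, the only member highest in EV 1.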

How the results depend on the processing

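The count of genes that differ among EV, EV_DOX and DUX, 0 in edgeR, was 4 with all 12 libraries, 114 in DESeq2 and 0 to 4 with single libraries left out, 4 of them without EV 2 and 1 without DUX 2. For EV_DOX against EV it was 5 with all 12 libraries, 22 in DESeq2 and 0 to 0 with single libraries left out. For DUX against EV it was 168 in DESeq2 and 0 to 45 with single libraries left out, 45 without EV 2 and 3 without DUX 2. Leaving out a library moved the median SD over genes between 0.153 and 0.174, the between-group share of variance between 29.7 and 37.6%, and the median SD of the tendon list between 0.971 and 1.39, of the slow fibre list between 0.262 and 0.472 and of the interferon-induced list between 0.414 and 0.559. The slow fibre value was lowest without EV_DOX 2. The causes of these changes were not tested.

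No label ties replicate numbers to mice, and libraries of the same number did not all deviate together. Deviations from the group means correlated at -0.10, 0.18 and 0.12 between EV and DUX of the same number at 0.21, 0.13 and -0.42 between EV and EV_DOX, and at -0.11, 0.09 and 0 between EV_DOX and DUX_DOX, the other pair of groups from opposite limbs. Among the DUX libraries EV 1 correlated best with DUX 3. With the replicate block the 3 counts were 0, 0 and 0, and the median SD was 0.162. With the block in EV and DUX alone, 10 genes were called, 8 of them lower in DUX, among them the tendon genes Kera, Col11a1 and Comp.

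Of 321 single-gene values under the alternatives 299 counted as unchanged, 0 reversed, and 12 passed the threshold where the main value did not. The 321 include within-group SDs of the marker genes, which have neither a direction nor a threshold. An SD counted as unchanged when it stayed close to the main value. A fold change counted as unchanged when it kept its sign and its side of the threshold, whatever its size. The log2 fold change of Myh7 in EV_DOX over EV counted so throughout. It ran from 0.51 to 4.52 with single libraries left out. Tests among the 3 groups, also included, have a threshold but no direction. A table floor of 10.0 mean counts limits what can be said of rare transcripts such as those of T cells.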

Other observations

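Some genes outside the naming rule varied between the libraries and were picked out after their values were seen. Fhl1, a LIM protein of the sarcomere and one of the more abundant variable genes, read 463, 2329 and 613.5 CPM in EV, 617, 832 and 1451 CPM in EV_DOX, and 2991, 2453 and 1613 CPM in DUX, so that EV 2 again lay among the DUX libraries. Bcl6, a transcriptional repressor, read 151, 39.8 and 129 CPM in EV, 145, 113 and 50.3 CPM in EV_DOX and 49.2, 38.4 and 95.6 CPM in DUX, with the 3 libraries high in tendon genes on top. Socs1, a suppressor of cytokine signalling that acts on interferon receptors, read 5.59 CPM in EV 1 and from 0.528 to 1.233 CPM in the other 8 libraries. DUX 1 was second at 1.233 CPM, and EV 2 and DUX 2 read 0.622 and 0.899 CPM.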
